A study of Mus musculus with 9 samples.

Results

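The D cyclins (Ccnd1, Ccnd2, Ccnd3), the kinases Cdk4, Cdk6 and Cdk2, and the pocket proteins Rb1, Rbl1 and Rbl2 were described in hair follicle bulge stem cells of mice on 2 diets. These 9 genes were taken by symbol from the 35006 gene symbols of the count tables, and all 9 were found and tested. The cells were CD34+ alpha6+ hair follicle cells of C57BL/6J mice, isolated by flow cytometry from pools of 3 animals per group. The 5 AL libraries came from individually housed mice with free access to food (ad libitum), and the 4 DR libraries from individually housed mice given each day 70% of the food that matched AL mice ate (dietary restriction). Libraries are called AL1 to AL5 and DR1 to DR4 after their replicate numbers. The labels name 2 animal facilities without tying a library to either, so facility and diet cannot be told apart here. They give no age, sex, irradiation state or hair cycle stage, and do not say that each library had its own pool, so p-values measure the spread between these libraries, which may be technical.

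As background, D cyclins are the cyclins that growth signals induce in the first gap phase of the cell cycle (G1). They switch on Cdk4 and Cdk6, which phosphorylate the pocket proteins. Unphosphorylated pocket proteins hold E2F transcription factors and keep the genes of DNA synthesis silent, and Cdk2 with cyclin E completes their phosphorylation at entry into S phase. Rb1 (pRb) binds activating E2Fs, whereas Rbl1 (p107) and Rbl2 (p130) bind repressive E2Fs, and p130 is the form typical of resting cells, where it forms the DREAM complex with the MuvB proteins. Bulge stem cells rest for most of the hair cycle and divide briefly when a new hair starts to grow.

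Library totals ran from 26119459 to 33559312 gene counts. The members had between 137 counts (Cdk6, DR1) and 6934 counts (Cdk4, AL2) per library. Markers of the labelled cells were abundant, with a summed level of 11 bulge genes (Krt15, Krt5, Cd34 and others) of 27641 to 38753 CPM in AL and 21108 to 22585 CPM in DR. CPM are counts in 1000000 of the TMM-scaled library total. A sum of 10 genes of dividing cells, such as Mki67 and Top2a, was 91.6 CPM in AL5, 344 to 661 CPM in the other AL libraries and 13.7 to 36.0 CPM in DR. Summed markers of fibroblasts (6 genes) were 74.0 to 123 CPM in AL and 19.8 to 40.5 CPM in DR, and those of melanocytes (6 genes) 7.45 to 24.1 and 5.79 to 7.66 CPM. Endothelial markers (5 genes) summed to 0.941 to 15.4 CPM in AL and 3.61 to 34.1 CPM in DR, and immune markers (5 of 6 matched) to 2.11 to 30.8 and 6.09 to 38.7 CPM. The sums of sebaceous gland (5 genes; 114 to 153 against 151 to 240 CPM), hair shaft and inner sheath (6 genes; 149.6 to 185 against 127 to 194 CPM) and suprabasal markers (5 genes; 1348 to 4054 against 1436 to 4559 CPM) overlapped between diets. No matched marker was at 0 in every library. The fibroblast sum was mostly Col1a1 and Col1a2 (51.9 CPM in AL, 19.6 CPM in DR). Col3a1, Dcn and Lum were scarce, at 0.717, 0.956 and 0.104 CPM in AL and 0.418, 1.67 and 0.0979 CPM in DR. Dcn did not pass (log2 fold change 0.81, edgeR adjusted p = 0.38), and Col3a1 and Lum were below the filter on low counts. Of the fibroblast markers, those lower in DR were Col1a1 (49.4 ± 11.8 CPM in AL, 4.88 ± 3.36 CPM in DR; SD, n = 5 and 4) and Col1a2, while Pdgfra rose by 1.49 on the log2 scale from 1.07 ± 0.338 CPM. Cd34, 1 of the 2 proteins used for the sort, fell by 1.18 on the log2 scale, a call lost without DR3 (edgeR adjusted p = 0.052). The bulge markers did not move together: of 11, 5 fell and 2 rose, and when each library was left out in turn 2 to 5 fell and 1 to 2 rose. Beside Cd34, those that fell were Krt5 (log2 fold change -0.91), Krt15 (-0.54), Krt14 (-0.50) and Sox9 (-0.38). Tcf4 rose by 0.43 and Cd200 by 0.66 on the log2 scale. Itga6, the other sorted protein, did not pass (-0.12, edgeR adjusted p = 0.34). Of all tested genes, 21.7% fell and 19.0% rose. Of the melanocyte markers, 2 of 4 tested fell, Dct (log2 fold change -2.17) and Tyrp1 (-2.13). Sebaceous markers were mixed: of 4 tested, Scd1 rose by 1.02 on the log2 scale, while 2 fell, Plin2 (-0.70) and Awat2 (-0.70). When each library was left out in turn, 1 to 2 of them rose and 1 to 2 fell. The part of dividing cell, fibroblast, melanocyte, sebaceous and bulge marker differences in the results below was not tested.

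In DR bulge cells the cyclin and kinase side of the pathway was lower and the pocket proteins parted from each other. Of the 9 genes, 6 fell (Ccnd1, Ccnd2, Cdk4, Cdk6, Cdk2 and Rbl1), 2 rose (Rb1 and Rbl2) and Ccnd3 did not pass, by edgeR's quasi-likelihood test adjusted over all 15447 genes tested. These counts are read against 40.7% of all tested genes that passed, 21.7% lower and 19.0% higher in DR. The median log2 fold change was -0.58 for the 9 genes and -0.02 for all tested genes. In 7 of the 9 the CPM of the diets did not overlap, against 32.9% of all tested genes. Fewer cells of a type and less RNA per cell cannot be told apart in pooled RNA.

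**Figure D1:**
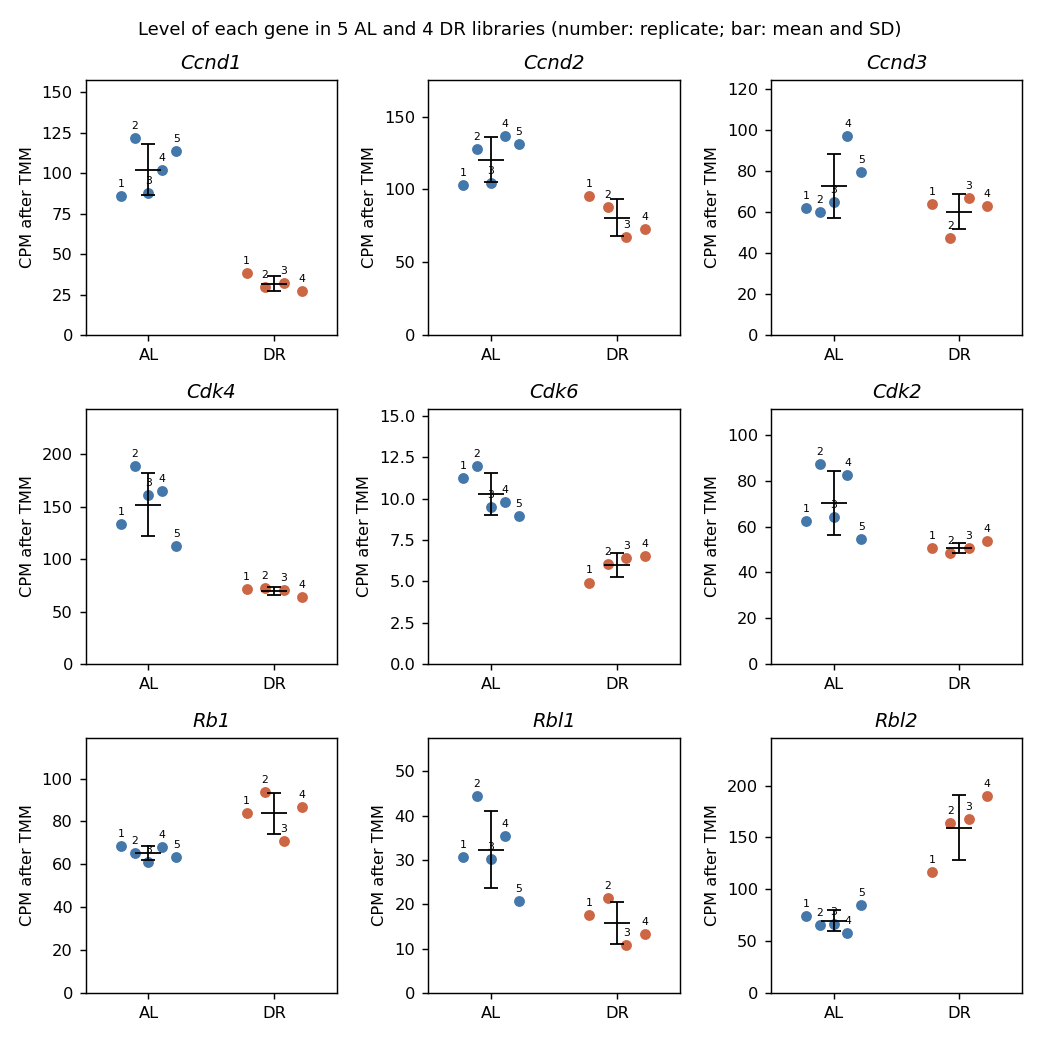
Level of the 9 genes in each library, in CPM after TMM scaling (vertical axes start at 0), with 5 AL libraries in blue and 4 DR libraries in orange; numbers are replicates, bars the mean and SD. The DR libraries of Ccnd1 lie between 27.2 and 38.2 CPM and those of AL between 85.9 and 121 CPM, while for Ccnd3 the diets overlap.

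Cyclin D1, the D cyclin best known as a target of growth factor and Wnt signals, showed the widest gap of the 9 genes. Ccnd1 (chromosome 7) stood at 85.9, 121, 87.95, 102 and 114 CPM in AL1 to AL5, and at 38.2, 29.9, 32.2 and 27.2 CPM in DR1 to DR4. Every DR library was below every AL library by a wide margin. The mean was 102 ± 15.6 CPM for AL and 31.9 ± 4.67 CPM for DR (SD, n = 5 and 4), so that DR had 31.2% of the AL level (-1.68 on the log2 scale, SE 0.14, edgeR adjusted p = 1.6e-05). AL5, the AL library lowest in dividing cell genes, was second highest of all libraries for Ccnd1. Without it the log2 fold change was -1.64.

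Ccnd2, the D cyclin that responds to Myc and FoxO factors in several tissues, fell less. Its level in AL was 103, 128, 105, 137 and 131 CPM, and in DR 95.1, 87.6, 67.1 and 72.8 CPM. The diets did not overlap, although DR1 came close to AL1 and AL3. Ccnd2 (chromosome 6) fell by 0.58 on the log2 scale (SE 0.13, edgeR adjusted p = 0.0048), from 120.5 ± 15.8 to 80.7 ± 13.0 CPM (SD, n = 5 and 4).

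Ccnd3, the D cyclin often retained in differentiating cells, did not pass. It was measured at 62.2, 60.1, 64.8, 97.2 and 79.4 CPM in AL and 63.9, 47.5, 66.7 and 63.0 CPM in DR. The ranges overlap, and the highest values were those of AL4 and AL5. The log2 fold change of Ccnd3 (chromosome 17) was -0.27 (SE 0.16, edgeR adjusted p = 0.19), and without AL4 it was -0.15 (adjusted p = 0.39). Reads of Ccnd3 can be shared with its processed copy Ccnd3-ps, which was listed with 8.88 ± 2.48 CPM for AL and 6.26 ± 0.602 CPM for DR (SD, n = 5 and 4; edgeR adjusted p = 0.069).

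Among the kinases, Cdk4, the main partner of D cyclins in epithelium, fell most. Cdk4 (chromosome 10) was at 133, 189, 161, 165 and 112 CPM in AL and at 71.2, 72.9, 70.2 and 64.0 CPM in DR. The DR libraries were close to each other (coefficient of variation 5.54%), while the AL libraries spread more widely (19.6%), with AL5 lowest. The level fell from 152 ± 29.7 to 69.6 ± 3.86 CPM (SD, n = 5 and 4), a log2 fold change of -1.13 (SE 0.14, edgeR adjusted p = 0.000177). Without AL5 it was -1.22.

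Cdk6, the second D cyclin kinase, was the scarcest member. Its AL values were 11.2, 12.0, 9.49, 9.78 and 8.92 CPM and its DR values 4.93, 6.04, 6.39 and 6.51 CPM. The diets did not overlap. Cdk6 (chromosome 5) had a log2 fold change of -0.78 (SE 0.14, edgeR adjusted p = 0.0015), from 10.3 ± 1.28 to 5.97 ± 0.722 CPM (SD, n = 5 and 4).

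Cdk2, the kinase of cyclins E and A, fell least of the kinases. It was listed at 62.4, 87.2, 64.2, 82.7 and 54.7 CPM in AL and 50.5, 48.4, 50.7 and 53.5 CPM in DR. DR libraries were tight, and AL5 lay just above DR4. The log2 fold change of Cdk2 (chromosome 10) was -0.47 (SE 0.13, edgeR adjusted p = 0.016), and -0.55 without AL5.

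The promoters of Cdk4, Cdk2, Rbl1 and Rbl2 are shown as examples. The first 3 hold letters that factors of this pathway are known to bind, Myc at the E-box and E2F at its own site. Rbl2 holds neither. Cdk6, with an E-box, and Ccnd3, with neither, are not shown. Whether a match goes with a change in level was not tested. Each line gives the 180 bases before the RefSeq transcript start, 5′ to 3′ on the gene's strand, build GRCm38.p6 (the counts were made on another build, mm9), with E-box or E2F matches in capitals.
Cdk4: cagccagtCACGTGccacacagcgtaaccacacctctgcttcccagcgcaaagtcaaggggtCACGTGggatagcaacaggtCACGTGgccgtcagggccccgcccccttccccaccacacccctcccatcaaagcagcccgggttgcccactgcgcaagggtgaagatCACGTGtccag
Cdk2: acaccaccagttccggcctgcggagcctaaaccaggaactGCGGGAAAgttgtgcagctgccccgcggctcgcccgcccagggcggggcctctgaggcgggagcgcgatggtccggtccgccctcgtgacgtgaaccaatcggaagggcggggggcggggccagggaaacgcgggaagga
Rbl1: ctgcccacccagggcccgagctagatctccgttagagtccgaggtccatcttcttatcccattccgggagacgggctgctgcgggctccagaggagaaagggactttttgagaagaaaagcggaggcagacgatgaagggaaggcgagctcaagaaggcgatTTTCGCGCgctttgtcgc
Rbl2: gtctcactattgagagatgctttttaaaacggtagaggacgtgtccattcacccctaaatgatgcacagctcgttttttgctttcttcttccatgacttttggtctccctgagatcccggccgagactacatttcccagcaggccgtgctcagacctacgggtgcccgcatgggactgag
These stretches lie at chr10:127063355-127063534 on the plus strand (Cdk4), chr10:128705052-128705231 on the minus strand (Cdk2), chr2:157204535-157204714 on the minus strand (Rbl1) and chr8:91069877-91070056 on the plus strand (Rbl2).

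The searches covered the whole 300-base windows, 250 bases before to 50 after the start, of the 6 members that the table holds (Ccnd3, Cdk4, Cdk6, Cdk2, Rbl1 and Rbl2), on both strands. The Cdk4 window held the E-box CACGTG 4 times, starting 172, 118, 98 and 11 bases before the transcript start. At least 1 E-box was found in 7.15% of all 32851 windows, and 4 or more in 8 of them. Cdk6 held 1 E-box, 220 bases before its start. An E2F octamer (TTTCGCGC, TTTGGCGC, TTTCCCGC or TTTGCCGC) was found in 2.26% of all windows. Among the members it stood in Rbl1, 18 bases before the start, and in Cdk2, on the opposite strand, 140 bases before the start. A FoxO heptamer (TGTTTAC; 3.65% of all windows) was found in 1 of the 2 Ccnd3 windows, and a CHR hexamer (TTTGAA or TTCGAA; 19.2%) in Rbl2. No member window held the CRE octamer TGACGTCA, present in 1.79% of all windows. A match is a description of letters and not of binding.

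Rb1 (chromosome 14), the founding pocket protein and tumour suppressor, was modestly higher in DR. It was at 68.4, 65.0, 61.0, 68.0 and 63.4 CPM in AL and 83.9, 93.7, 70.8 and 86.8 CPM in DR. AL libraries were very uniform (coefficient of variation 4.83%), and DR3 was nearest to them. Rb1 rose from 65.2 ± 3.15 to 83.8 ± 9.60 CPM (SD, n = 5 and 4; a difference of 0.36 in log2, SE 0.09, edgeR adjusted p = 0.0078), an increase of 1.29-fold.

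Rbl2 (chromosome 8), which encodes p130, rose most. It was at 74.0, 65.0, 66.8, 58.0 and 85.0 CPM in AL and at 116, 164, 168 and 189.7 CPM in DR. All DR libraries were above all AL libraries, DR1 was lowest of DR and AL5 highest of AL. The level rose 2.29-fold, from 69.8 ± 10.2 to 159 ± 31.0 CPM (SD, n = 5 and 4; a difference of 1.19 in log2, SE 0.15, edgeR adjusted p = 0.000175).

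Rbl1 (chromosome 2), which encodes p107 and is itself a textbook E2F target, moved in the opposite direction to its close relative. Its values were 30.7, 44.4, 30.3, 35.5 and 20.8 CPM in AL and 17.6, 21.3, 10.7 and 13.3 CPM in DR. The diets overlap by 1 library, since DR2 was above AL5. Rbl1 fell from 32.3 ± 8.59 to 15.7 ± 4.67 CPM (SD, n = 5 and 4; a difference of -1.04 in log2, SE 0.23, edgeR adjusted p = 0.0050), and it was the most variable member in both diets (coefficient of variation 26.6% and 29.7%). Without AL5 its log2 fold change was -1.16.

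**Figure D2:**
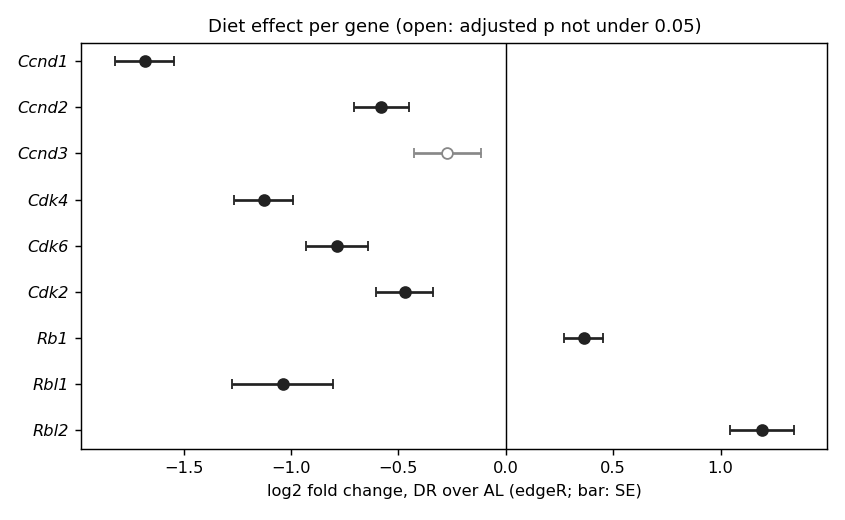
Log2 fold change of the 9 genes, DR over AL (horizontal axis), from edgeR's quasi-likelihood test, with bars of 1 SE; filled points passed at an adjusted p under 0.05. Ccnd1 is farthest left at -1.68, Rbl2 farthest right at 1.19, and the open point is Ccnd3.

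The members differed in where AL5, the AL library lowest in genes of dividing cells, stood among the AL libraries. AL5, with the dividing cell sum of 91.6 CPM, was the lowest AL library for Cdk4, Cdk6, Cdk2 and Rbl1 and the highest for Rbl2. For Ccnd1 and Ccnd2 it was the second highest of AL, and for Ccnd3 likewise. AL5 is 1 library, and its place was seen after the values were known. In the other AL libraries the dividing cell sum was 661 (AL2), 658 (AL4), 368 (AL1) and 344 CPM (AL3). Ccnd1, Ccnd2, Cdk4, Cdk2 and Rbl1 were higher in AL2 and AL4 than in AL1 and AL3, and Rbl2 was lower. Cdk6, Ccnd3 and Rb1 showed neither order. The part of cell division in the diet differences was not tested.

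**Figure D3:**
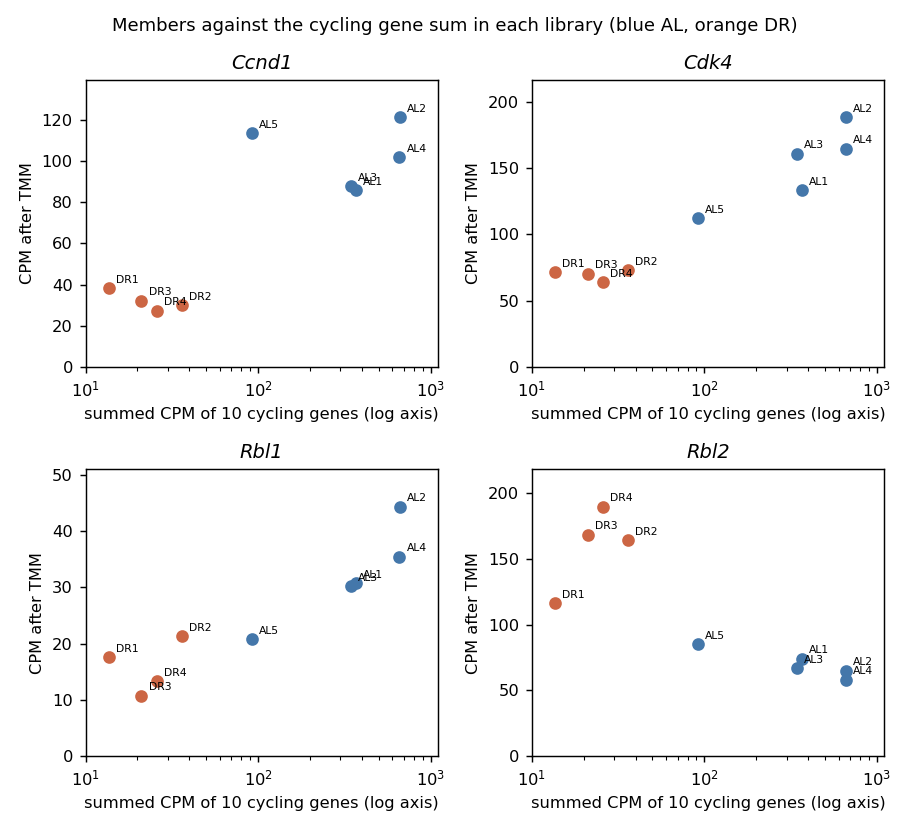
CPM of Ccnd1, Cdk4, Rbl1 and Rbl2 in each library (vertical axes) against the summed CPM of 10 genes of dividing cells (horizontal log axis), AL in blue and DR in orange. AL5 has a sum of 91.6 CPM and lies between the other AL libraries and DR for Cdk4, Rbl1 and Rbl2 (Rbl1 also overlaps DR), but for Ccnd1, at 114 CPM, it stays among the AL libraries.

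Whether paralogs changed by different amounts was tested on their count ratio within each library, where gene length and library size cancel between diets. Of 9 within-family pairs, 6 differed between diets by an exact two-sided permutation test over the libraries. Each of these 6 had non-overlapping ratios and the smallest p that the exact test allows here (p = 0.00794, adjusted over the 9 pairs p = 0.012). The single genes' changes bear on these ratios, so the ratio tests are not independent of them. Nor are the ratios of a family independent of each other. Of all tested genes taken singly, 40.7% passed edgeR's test and 32.9% did not overlap between diets. How many ratios of unrelated genes would differ was not tested.

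Cyclin D1 lost ground to both other D cyclins. There were 0.747 to 0.951 Ccnd1 counts per Ccnd2 count in AL and 0.341 to 0.480 in DR, a 2.14-fold lower ratio (DR minus AL -1.10 on the log2 scale; exact permutation p = 0.00794). Per Ccnd3 count the Ccnd1 counts were 1.05 to 2.02 in AL and 0.433 to 0.629 in DR, a difference of -1.42. The Ccnd2/Ccnd3 ratio overlapped between diets (1.41 to 2.12 against 1.01 to 1.85; -0.32, exact permutation p = 0.17, adjusted p = 0.17). It passed without DR2 (-0.48, exact permutation, adjusted p = 0.046).

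Among kinases, Cdk4 fell relative to Cdk2. The Cdk4/Cdk2 ratio was 2.13, 2.16, 2.51, 2.0 and 2.05 in AL and 1.41, 1.51, 1.38 and 1.20 in DR (difference -0.66 on the log2 scale; exact permutation p = 0.00794). AL5 lay within the range of the other AL libraries in this ratio, although it was lowest of AL for both genes. The ratios Cdk4/Cdk6 (-0.32, exact permutation p = 0.087, adjusted p = 0.098) and Cdk6/Cdk2 (-0.34, exact permutation p = 0.056, adjusted p = 0.071) overlapped between diets and did not pass. Cdk6/Cdk2 passed without AL4 (-0.42, exact permutation, adjusted p = 0.037).

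The pocket proteins showed the widest shift. The ratio of Rbl1 to Rbl2 counts was 0.415, 0.683, 0.453, 0.612 and 0.245 in AL and 0.152, 0.130, 0.0640 and 0.0701 in DR. It was 4.68-fold lower in DR (difference -2.23 on the log2 scale; exact permutation p = 0.00794), and AL5 was the AL library nearest to DR. Relative to Rb1, Rbl1 was lower (0.328 to 0.683 against 0.152 to 0.228; -1.40) and Rbl2 was higher (0.853 to 1.34 against 1.39 to 2.38; 0.83). The gap between AL5 and DR1 in the Rbl2/Rb1 ratio was small, at 1.34 and 1.39.

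**Figure D4:**
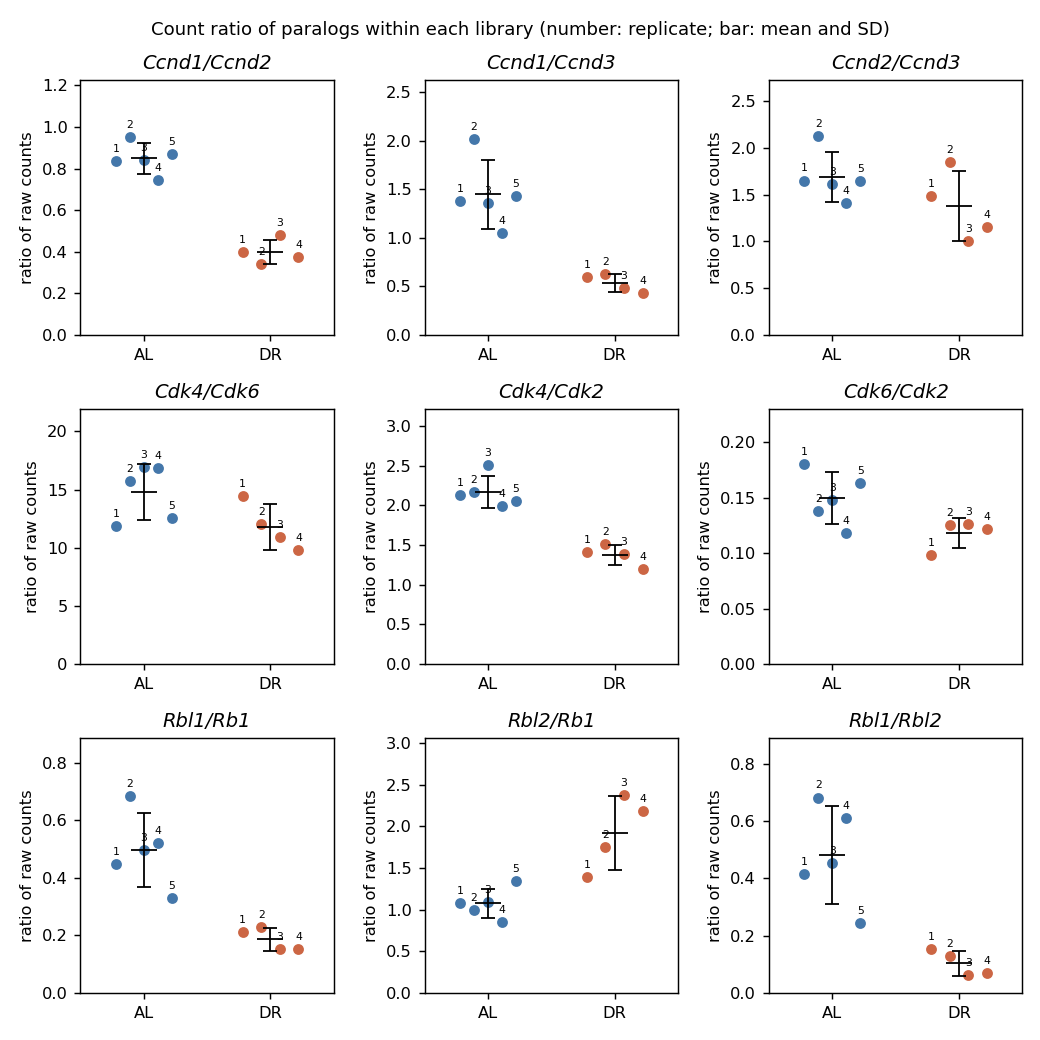
Ratio of raw counts of paralog pairs in each library (vertical axes, linear, starting at 0), 5 AL in blue and 4 DR in orange, with mean and SD. The diets are apart in 6 panels and overlap for Ccnd2/Ccnd3, Cdk4/Cdk6 and Cdk6/Cdk2; Rbl1/Rbl2 drops from between 0.245 and 0.683 to between 0.0640 and 0.152.

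Levels of different genes were compared per kilobase (kb) of the longest protein-coding transcript in GENCODE M21, which is 2053 bases for Cdk4, 2113 for Ccnd3, 2406 for Cdk2, 3740 for Ccnd1, 6330 for Ccnd2 and 11525 for Cdk6. The pocket protein transcripts measure 4656 (Rb1), 4862 (Rbl1) and 4925 bases (Rbl2). In AL the order of the mean levels was Cdk4 (74.0 CPM per kb), Ccnd3 (34.4), Cdk2 (29.2), Ccnd1 (27.3), Ccnd2 (19.0), Rbl2 (14.2), Rb1 (14), Rbl1 (6.65) and Cdk6 (0.892). Ccnd3, Cdk2 and Ccnd1 overlapped in range, as did Ccnd2 with Rbl2 and Rbl2 with Rb1. In DR it was Cdk4 (33.9 CPM per kb), Rbl2 (32.4), Ccnd3 (28.5), Cdk2 (21.1), Rb1 (18.0), Ccnd2 (12.7), Ccnd1 (8.52), Rbl1 (3.24) and Cdk6 (0.518). The ranges of Cdk4, Rbl2 and Ccnd3 overlapped there, as did those of Cdk2 and Rb1, while Ccnd1 stayed below Ccnd2 in every DR library.

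Within families the order changed for the D cyclins. Ccnd1 ranked above Ccnd2 per kb in 5 of 5 AL libraries and below it in 4 of 4 DR libraries, and it made up 34.0% ± 4.03 of summed D cyclin CPM per kb in AL, against 17.1% ± 1.53 for DR (SD, n = 5 and 4). Ccnd3 was the most abundant D cyclin per kb in 4 of 5 AL libraries and in 4 of 4 DR libraries, at 42.4% ± 4.79 and 57.2% ± 5.52. The Ccnd2 share was 23.6% ± 0.785 in AL and 25.7% ± 4.48 in DR. Cdk4 was above Cdk2, and Cdk2 above Cdk6, in all 9 libraries, and the Cdk4 share of the kinases went from 71.1% ± 1.78 to 61.0% ± 2.33. The Cdk6 level per kb depends on the transcript chosen: with the next longest coding transcript (2470 bases) its AL level was 4.16 ± 0.519 CPM per kb (SD, n = 5), still the lowest mean of the 9. Rbl2 was above Rb1 in 3 of 5 AL and 4 of 4 DR libraries, and its share of summed pocket protein CPM per kb was 40.7% ± 5.55 in AL and 60.1% ± 6.44 in DR, against 19.1% ± 4.84 and 6.11% ± 1.96 for Rbl1.

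**Figure D5:**
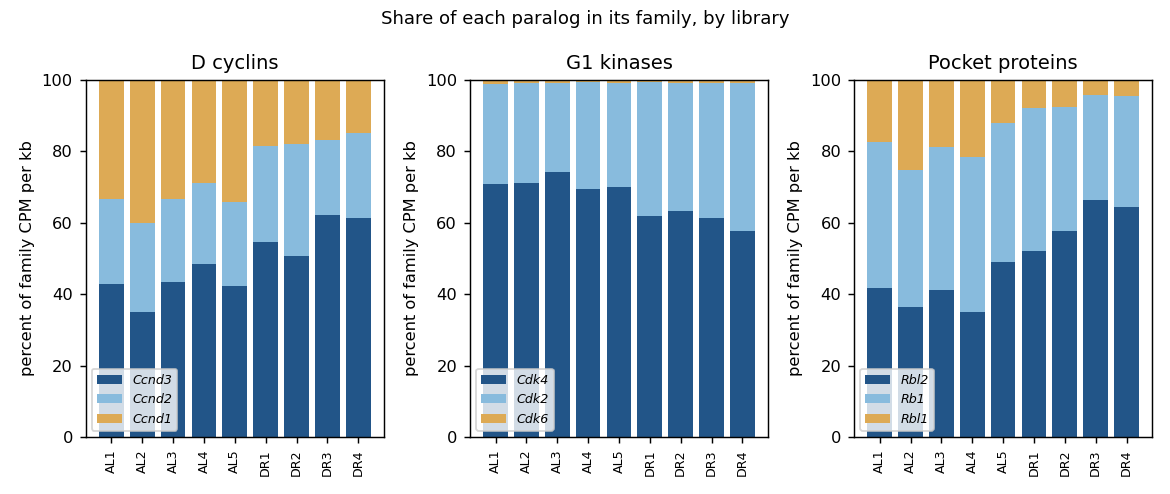
Share of each paralog in the summed CPM per kb of its family (vertical axis, percent) in each of 5 AL and 4 DR libraries. The Ccnd1 part shrinks from 34.0% to 17.1% and the Rbl2 part grows from 40.7% to 60.1% (means), while Cdk6 makes up 0.874% and 0.934% of the kinases.

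Around these members, 98 other pathway genes of 15 lists were tested, of which 36 (36.7%) fell and 19 (19.4%) rose, against 21.7% and 19.0% of all tested genes. Without a single library in turn, 31 to 39 fell and 15 to 24 rose. Of the cyclin partners of Cdk2, Ccna2 (cyclin A2) fell by 4.15 on the log2 scale (edgeR adjusted p = 0.00038), from 33.1 ± 18.9 to 1.84 ± 0.863 CPM (SD, n = 5 and 4). Ccna1, the germ line cyclin A, was below the filter on low counts. Ccne2 fell by 0.92, a call lost without AL2, AL4, DR2 or DR3 (adjusted p 0.052 to 0.076). Ccne1 (-0.95, adjusted p = 0.11) did not pass, except without DR1 (-1.50, adjusted p = 0.015). Of the phosphatases that remove inhibitory phosphates from Cdks, Cdc25a (-0.50), Cdc25b (-0.78) and Cdc25c (-4.32) fell, as did the inhibitory kinase gene Pkmyt1 (-1.25). Wee1, the other inhibitory kinase of this list, named after its values were seen, had a log2 fold change of 0.84 (edgeR adjusted p = 0.076) and passed without AL4 (1.13, adjusted p = 0.016).

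Most E2F and DP genes were lower: of 10, 8 fell and 1 rose, against 21.7% and 19.0% of all tested genes. Pocket proteins bind E2F1 to E2F5 with their DP partners, whereas E2F6, E2F7 and E2F8 lack the domain for this binding. The activators E2f1 (-3.33), E2f2 (-1.49) and E2f3 (-1.89) and the late repressors E2f7 (-2.65) and E2f8 (-3.66) fell. E2f4, the partner of p130 in resting cells, had a log2 fold change of -0.10 (SE 0.09, edgeR adjusted p = 0.39), and its relative E2f5 fell by 0.43 on the log2 scale. E2f6 fell by 0.54, but not without AL2 (adjusted p = 0.055) or DR4 (adjusted p = 0.060). The DP partners went apart: Tfdp1 fell by 0.77 and Tfdp2 rose by 1.61 (SE 0.15), from 47.8 ± 6.64 to 146 ± 34.2 CPM (SD, n = 5 and 4).

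Of 7 genes for MuvB and its mitotic partners, 2 rose and 2 fell, against 19.0% and 21.7% of all tested genes. Lin52, the MuvB subunit through which p130 is bound, rose from 7.20 ± 0.336 to 15.2 ± 2.92 CPM (SD, n = 5 and 4; a difference of 1.08 in log2, SE 0.14, edgeR adjusted p = 0.00021), and Lin37 rose by 0.51. Foxm1, the mitotic transcription factor, fell by 3.56 (SE 0.49). Mybl2 (-1.48) lost its call without AL2, AL3, DR1, DR3 or DR4 (adjusted p 0.052 to 0.083). The kinases that promote DREAM assembly, Dyrk1a (0.24, edgeR adjusted p = 0.19) and Dyrk1b (-0.02, adjusted p = 0.88), did not pass, but Dyrk1a did without AL4 (0.37, adjusted p = 0.0090).

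Of 18 classic E2F targets 12 fell, against 21.7% of all tested genes. The median log2 fold change of the 18 was -1.43. Uhrf1 (-3.92), Pola1 (-1.43), Tyms (-1.98) and Rrm1 (-1.50) had the smallest p. Pcna (-0.05, edgeR adjusted p = 0.84), Mcm7 (0.04, adjusted p = 0.90) and Rrm2 (0.23, adjusted p = 0.44) did not pass; these 3 were picked after their values were seen. When each library was left out in turn, 10 to 15 of the 18 fell, with 15 without AL5, and Mcm4 and Orc1 among those lost without DR2 (adjusted p = 0.056 and 0.051). The sum of this list was 423 CPM in AL5, where it was lowest of AL, up to 1115 CPM in AL and 399 to 453 CPM in DR.

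Of the inhibitors of the kinases, 1 of 3 tested Ink4 genes and 0 of 3 Cip/Kip genes passed, against 40.7% of all tested genes. Lists this short cannot show whether inhibitors passed less often than other genes. Of the Ink4 genes, whose proteins bind Cdk4 and Cdk6, Cdkn2c (p18) fell by 0.83 (edgeR adjusted p = 0.033), a call lost when any of 6 libraries was left out (AL2, AL4 or any of DR; adjusted p 0.057 to 0.079). Cdkn2b (-0.51) and Cdkn2d (0.50) did not pass, though Cdkn2d did without DR2 (adjusted p = 0.046), and Cdkn2a was below the filter on low counts. The 3 Cip/Kip genes, inhibitors of Cdk2 in particular, did not pass on all libraries: Cdkn1a (p21) had a log2 fold change of 0.72 (adjusted p = 0.092), Cdkn1c (p57) 0.86 (adjusted p = 0.065) and Cdkn1b (p27) 0.16 (adjusted p = 0.15). Cdkn1b varied little, with 215 ± 8.27 CPM for AL and 241 ± 20.4 CPM for DR (SD, n = 5 and 4). Without AL5, Cdkn1a (0.93, adjusted p = 0.031) and Cdkn1c (0.98, adjusted p = 0.047) passed, and Cdkn1c also did without AL4 or DR2.

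Genes that act on D cyclin and Cdk4 protein were mixed. Ambra1, the adaptor that directs D cyclins to degradation, rose by 0.38 (SE 0.09, edgeR adjusted p = 0.0055), and Cul3 rose by 0.45. Cks1b, a Skp2 cofactor in p27 turnover, fell by 1.01. Fbxo4 (0.46) lost its call when any of 6 libraries was left out (AL1, AL4, AL5, DR2, DR3 or DR4; adjusted p 0.055 to 0.094). Cdc37, the co-chaperone that loads Cdk4 onto Hsp90, fell by 0.31 (adjusted p = 0.010). Of 7 genes for chromatin proteins that bind pocket proteins, 2 rose and 3 fell, against 19.0% and 21.7% of all tested genes. Those with the smallest p were Arid4a (0.65) and Kdm5a (0.52), which rose, and Rbbp7 (-0.53) and Hdac2 (-0.39), which fell. Of 7 phosphatase genes that act on pocket proteins, 2 rose and 1 fell, against 19.0% and 21.7% of all tested genes. Ppp2r2d rose by 0.55 (SE 0.08). The small changes of Ppp1ca (-0.24) and Ppp2r2a (0.34) each lost their call when any of 7 single libraries was left out (adjusted p up to 0.11). Of the 3 genes of the Cdk-activating kinase, 1 rose, against 19.0% of all tested genes. This was Cdk7 (0.25), a call lost when any of 5 libraries was left out (AL2, AL3, AL4, DR2 or DR4; adjusted p 0.050 to 0.076).

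Genes with the profile most like a member were ranked over the 9 libraries by the root mean square difference of log2 CPM, each gene centred on its own mean, among 10051 genes whose log2 CPM averaged 2 or more. For Ccnd1 these were Anxa6 (0.18), Crip1 (0.19) and Fstl1 (0.19), all of which fell with log2 fold changes of -1.70, -1.74 and -1.52. For Cdk4 they were Sorl1 (0.10), Gpt (0.11) and Nup37 (0.11). For Rbl1 they were Ccdc18 (0.16), the DNA primase gene Prim1 (0.17) and the condensin gene Ncapg2 (0.18), and for Rbl2 N4bp2l1, Bag4 and Brap (0.11 each). The median difference over all ranked genes was 0.88 for Ccnd1 and 0.63 to 0.68 for the other 3. All 9 libraries of both diets entered the ranking, so a shared diet difference follows from the selection.

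Some members overlap or adjoin other genes, and reads of overlapping genes on opposite strands cannot be told apart with this library kit. Tspan31, which meets the end of Cdk4 in the reference, was at 37.5 ± 2.33 CPM for AL and 24.2 ± 3.78 CPM for DR (SD, n = 5 and 4) and fell by 0.63 on the log2 scale. Bysl, which meets the end of Ccnd3, fell by 1.03 (edgeR adjusted p = 0.0016). Lpar6, which lies within Rb1, had a log2 fold change of 0.11 (adjusted p = 0.46), and Pmel, the melanocyte gene that overlaps Cdk2 in the reference, 0.10 (adjusted p = 0.75). Pmel was at 4.39 ± 1.39 CPM in AL (SD, n = 5), low against 70.3 ± 13.97 CPM for Cdk2.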

How the data were processed

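Each of the 9 deposited tables gives raw counts of reads by gene symbol, which the authors had not normalized. The submitters' processing notes name FastQC (0.11.5), TopHat2 (2.1.0), HTSeq (0.11.2), Bowtie and the build mm9. Neither annotation nor strand setting is given in the sources used here. The 6 lines without a gene name (25.9% to 30.7% of reads) were left out.

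Genes were filtered with filterByExpr, scaled by TMM and tested for diet with edgeR 4.0.16 (quasi-likelihood, Benjamini-Hochberg over 15447 genes, threshold 0.05; R 4.3.3). SE follow from the F statistic. Paralog ratios were log2 ratios of counts plus 0.5. Alternatives were DESeq2 1.42.0, limma 3.58.1 voom, other scalings and filters, a replicate block and leaving out libraries. Scripts were tested on simulated data. No library was a copy of another: within a diet, the chi-square divided by its degrees of freedom was 26.4 to 118. Lengths come from GENCODE M21 and promoters from RefSeq GRCm38.p6.

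The members, lists and tests were chosen with earlier results of these data known. Named genes were the members, up to 4 genes per list by p and past the threshold, whole lists of inhibitors, E2F, E and A cyclins and Dyrk1 kinases, 3 genes most like each of 4 members, and overlapping genes. Pcna, Mcm4, Mcm7, Orc1, Rrm2, Wee1, Myc and marker genes were named after their values were seen.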

Additional observations from a re-analysis of the deposited data

Results flagged for a closer look

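The Cdk6/Cdk2 count ratio of DR1 was 0.0976, against 0.122 to 0.126 in the other 3 DR libraries, a gap of 0.847 of the whole DR range (limit 0.829 for 4 libraries). DR1 also had the lowest Cdk6 level of all libraries, 4.93 CPM. It was the 1 departure among 36 sets of values checked (9 genes and 9 ratios in each diet), where chance gives about 1 in 20.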

How the results depend on the processing

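The 6 falls and 2 rises among the members kept their direction and their side of the threshold under all 18 alternatives, and Ccnd3 passed under none (adjusted p 0.058 to 0.42). Log2 fold changes ranged from -1.78 to -1.60 for Ccnd1, -0.67 to -0.49 for Ccnd2, -1.22 to -1.02 for Cdk4, -0.86 to -0.70 for Cdk6, -0.55 to -0.37 for Cdk2, 0.30 to 0.45 for Rb1, -1.22 to -0.88 for Rbl1 and 1.10 to 1.32 for Rbl2. The narrowest calls were Cdk2 (adjusted p = 0.044 without DR2 or DR3) and Rb1 (0.048 with library size only). Genes called over the whole table numbered 2275 to 3271 higher and 2674 to 3821 lower. The number of paralog pairs past the test was 6 to 7 when each library was left out, and 6 with a pseudocount of 5 or with medians. With the replicate block it was 0, because 4 pairs cannot give an exact sign-flip p below 0.125; the differences kept their direction (for example -2.45 for Rbl1/Rbl2). The block changed no call of a member in edgeR. Same-numbered libraries correlated by 0.029 to 0.23 in their deviations from the diet means, and not every library correlated best with its own number, so the numbers were not taken as pairs. Cdk6 per kb moved from 0.892 to 4.16 with the shorter transcript; the 2 length alternatives were added after the data were seen. Depth was lowest for Cdk6, with 137 to 202 counts in DR, and how much counting error adds to its spread was not tested.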

Other observations

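Of 12 tested genes for factors known to act on D cyclin genes, 5 rose in DR by edgeR's quasi-likelihood test, against 19.0% of all tested genes, and 4 to 6 when each library was left out in turn. Bcl6, a repressor of Ccnd2 in lymphocytes, rose from 182 ± 32.4 to 539 ± 61.2 CPM (SD, n = 5 and 4; 1.56 on the log2 scale, SE 0.14). Foxo3 (1.09), Foxo1 (0.99) and Stat5a (0.52) also rose. Myc, known to induce Ccnd2 and Cdk4, rose by 0.98 (adjusted p = 0.020), a call lost without DR1 (0.84, adjusted p = 0.056) or DR4 (0.93, adjusted p = 0.055). Mean Myc was 314 CPM under AL and 618 CPM under DR, and its ranges overlapped between diets. Whether Myc bears on the levels of Ccnd2 and Cdk4 was not tested. Myc was named after its values were seen.

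Of 6 other genes related to cyclins and kinases of G0 and G1, 3 rose and 1 fell, against 19.0% and 21.7% of all tested genes. Ccng2, a cyclin linked to cell cycle exit, rose by 0.79, Ccng1, a p53 target, by 0.50, and Ccndbp1, which encodes a protein that binds D cyclins, by 0.29. Cdk5 fell by 0.28, a call lost without DR3 (adjusted p = 0.075) or DR4 (0.053).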
